A study of Mus musculus with 120 samples.

Results

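The mouse mitochondrial chromosome encodes 37 genes, and all 37 were found in both count tables by the prefix mt- of their symbols (of 55492 and 55491 rows). They comprised 2 ribosomal RNA (rRNA) genes, 22 transfer RNA (tRNA) genes and 13 protein-coding genes. The immunological niche (IN) was a porous poly(ε-caprolactone) scaffold under the skin that was biopsied and replaced, and total RNA depleted of rRNA was sequenced from 120 biopsies of female mice. NOD/ShiLtJ mice develop autoimmune diabetes and were divided into progressors (P) and nonprogressors (NP), and NOR/LtJ mice served as healthy controls. All mice carried INs, and a mouse was placed in P or NP only once its outcome was known. Batch 1 held 23 samples from 5 NOR mice and 20 from 4 NP mice, taken every 4 weeks from the age of 6 to 22 weeks, and 25 from 5 P mice at 6 weeks of age, 5, 3 and 1 weeks before onset of hyperglycemia (−5, −3, −1) and onset. A further 6 NP samples of batch 1 are labelled by 31, 38 or 108 days after implantation and entered no comparison. Batch 2, sequenced on another instrument (NovaSeq X), held 13 NP samples (7 at 6 weeks and 6 at 14 weeks) and 33 P samples (8 at −7 weeks and 5 at each other time). All values were compared strictly within a batch, and since all NOR samples were in batch 1, the strain comparison could be made there only. In bulk RNA, fewer cells of a type and less RNA per cell cannot be told apart.

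Mitochondrial DNA is transcribed as long RNAs from both strands, and these are cut at the tRNAs into the separate rRNAs, tRNAs and messenger RNAs. The 13 proteins are core subunits of the enzymes of oxidative phosphorylation: the Nd genes encode subunits of NADH dehydrogenase (complex I), mt-Cytb cytochrome b of complex III, the Co genes the catalytic core of cytochrome c oxidase (complex IV), and mt-Atp6 and mt-Atp8 parts of ATP synthase. All remaining subunits, and the enzymes that copy and transcribe mitochondrial DNA, are encoded in the nucleus, and muscle is a tissue rich in mitochondria.

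The members lay close together, in part on top of each other. Coordinates are those of GRCm38 (GENCODE M21), and each gene is a single exon. The first sequences show the shortest and the longest tRNA, mt-Ts2 (chrM:11613-11671, plus strand) and mt-Tl1 (chrM:2676-2750, plus strand), since the length of the tRNAs bears on whether they could be counted. The next shows mt-Atp8 (chrM:7766-7969, plus strand), in which capitals mark the 43 bases it shares with mt-Atp6 on the same strand. The last pairs show the first 60 bases of mt-Nd3 (chrM:9459-9518, plus strand) and of mt-Nd4l (chrM:9877-9936, plus strand), each with the nuclear copy that could take its reads: Gm28438 (chr1:24613060-24613119, minus strand) and Gm10222 (chr1:24612641-24612700, minus strand). Capitals in the mt-Nd3 pair mark the only base that differed over the 345 aligned bases, T3C counted from the first base of mt-Nd3, and the mt-Nd4l pair was identical over 294 bases.
mt-Ts2: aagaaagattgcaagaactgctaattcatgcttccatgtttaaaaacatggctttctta
mt-Tl1: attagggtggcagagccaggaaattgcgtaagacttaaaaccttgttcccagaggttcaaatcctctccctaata
mt-Atp8: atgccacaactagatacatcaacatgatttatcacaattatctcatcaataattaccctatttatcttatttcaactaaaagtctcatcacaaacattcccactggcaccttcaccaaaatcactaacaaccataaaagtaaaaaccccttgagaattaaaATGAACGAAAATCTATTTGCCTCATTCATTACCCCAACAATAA
mt-Nd3: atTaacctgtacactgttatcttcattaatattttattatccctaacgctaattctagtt
Gm28438: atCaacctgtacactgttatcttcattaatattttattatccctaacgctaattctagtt
mt-Nd4l: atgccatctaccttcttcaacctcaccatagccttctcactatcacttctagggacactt
Gm10222: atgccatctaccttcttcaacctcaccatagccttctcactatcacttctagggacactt

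The 22 tRNA genes, which carry amino acids to the mitochondrial ribosome, were listed at 0 in all 120 samples. They are 59 to 75 bases long, 14 on the plus and 8 on the minus strand. A count of 0 allows up to 3 counts per library, equal to 0.0534 to 0.635 CPM (counts scaled to a common library size) in batch 1 and 0.0684 to 0.103 CPM in batch 2, for counting error only. The tRNAs could therefore not be compared between groups, and whether their length, the library preparation or the counting led to the zeros was not tested. The other 15 members had counts and passed the filter on low counts in each comparison.

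Of the 13 protein-coding genes, 7 had a nuclear copy with an identity of 99% or more over at least 100 bases. Reads from a stretch identical in a gene and its copy cannot be told apart. The copy of mt-Co1 covered only 483 of its 1545 bases, and that of mt-Nd4 876 of 1378. The 7 copies lay side by side on chromosome 1 (chr1:24611535-24616197, minus strand), a stretch of 4663 bases that follows the order of chrM:6390-11042. The authors' counting divided reads differently from pair to pair. In batch 1 the copy held a median of 78.9% of the counts of the pair for mt-Atp6 (Gm10925), 57.9% for mt-Co2 (Gm28661), 58.9% for mt-Co3 (Gm28437) and 89.7% for mt-Nd3 (Gm28438). The copy of mt-Nd4 (Gm28439) held 17.6%, and that of mt-Co1 (Gm29216) 0.0447%. For mt-Nd4l the copy Gm10222 held a median of 1.09% in batch 1 and 88.3% in batch 2, which left mt-Nd4l with a median of 4563 counts per sample in batch 1 and 101.5 in batch 2. For the 7 genes a count on the gene alone is therefore uncertain over the copied stretch, and each comparison was repeated with the copies added to their genes. The genes mt-Nd4l and mt-Nd4 shared 7 bases on the same strand, and mt-Nd5 and mt-Nd6 shared 14 bases on opposite strands. Whether the counting used strand is not given in the sources used here.

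**Figure D1:**
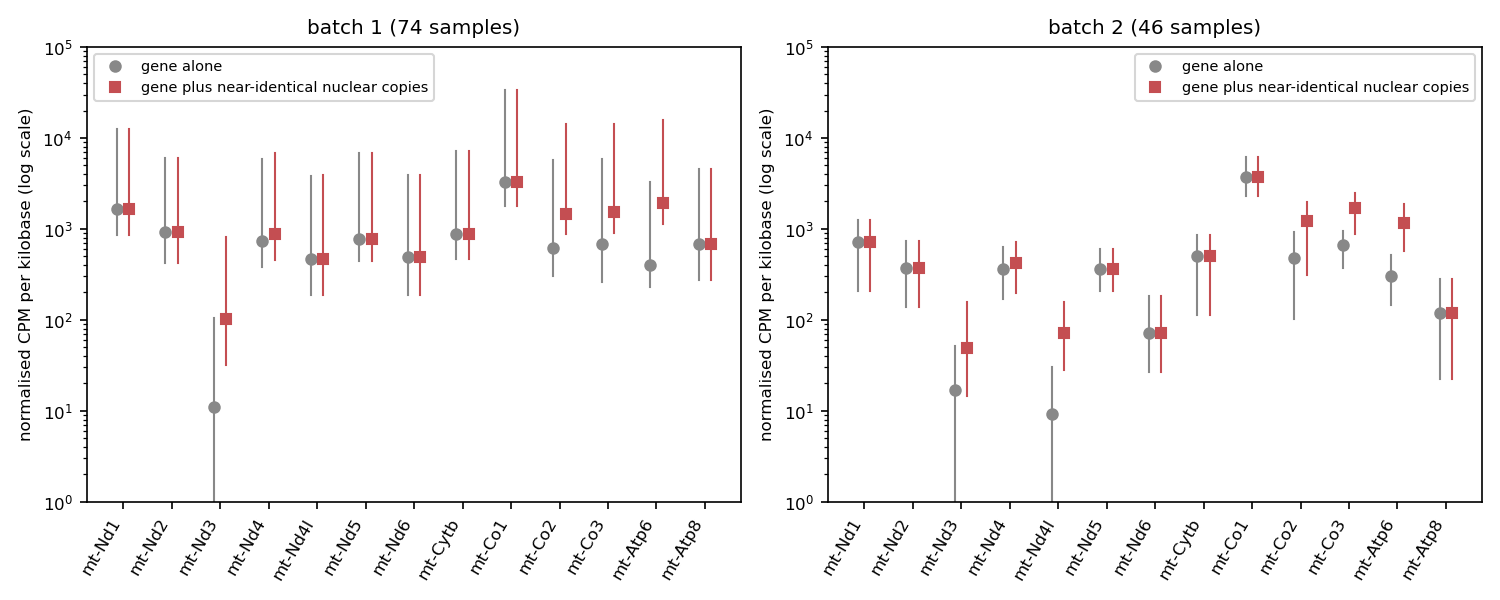
Level of each protein-coding gene in normalised CPM per kilobase (log axis) over the 74 samples of batch 1 and the 46 samples of batch 2, where points are medians and lines run from the lowest to the highest sample. Grey is the gene alone and red the gene with its near-identical nuclear copies; in batch 2 mt-Nd4l moves from the bottom of the grey values to 72.3 CPM per kilobase once its copy is added, and samples at 0 lie below the axis.

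With the copies added and levels expressed per kilobase, mt-Co1, the catalytic subunit of cytochrome c oxidase, had the highest median of the 13 in both batches (3315 and 3702 CPM per kilobase). It exceeded the gene next by median in every sample, and was not compared with each other gene sample by sample. Of the counts of the 13 genes, mt-Co1 took as little as 22.0% in batch 1, where mt-Nd5 reached 31.8%. By median, mt-Co1 was followed in batch 1 by mt-Atp6 (1934), mt-Nd1 (1661), mt-Co3 (1528) and mt-Co2 (1463). Of these, mt-Nd1 exceeded mt-Co3 in 47 of 74 samples and mt-Co3 exceeded mt-Co2 in 44 of 74, so their order did not hold in every sample. A middle group had medians from 680 (mt-Atp8) to 924 (mt-Nd2), in which mt-Nd2 exceeded mt-Cytb in 38 of 74 samples. The lowest were mt-Nd6 (491), the only protein-coding gene on the minus strand, mt-Nd4l (471) and mt-Nd3 (102). In batch 2 mt-Co3 (1701), mt-Co2 (1234) and mt-Atp6 (1168) followed mt-Co1, and mt-Co2 exceeded mt-Atp6 in 27 of 46 samples. The lowest in batch 2 were mt-Atp8 (119), mt-Nd4l (72.3), mt-Nd6 (71.4) and mt-Nd3 (49.1), and mt-Nd4l exceeded mt-Nd6 in 19 of 46 samples. Of the rRNAs, which the library preparation aimed to remove, mt-Rnr2 (16S) had medians of 993 and 1283 CPM per kilobase and mt-Rnr1 (12S) of 68.5 and 4.54 in batches 1 and 2. These levels hold for what was left after depletion and do not give the rRNA content of the tissue.

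The 13 protein-coding genes together took 0.200% to 6.12% of the counts of a library in batch 1 (median 1.37%) and 0.552% to 1.52% in batch 2 (median 0.953%). In NOR the group medians lay between 1.20% and 1.60% at all 5 ages. In NP of batch 1 the medians were 1.47%, 1.13%, 1.75% and 1.25% at 6, 10, 14 and 18 weeks and 3.29% at 22 weeks, when the 4 mice ranged from 1.69% to 6.12%. In P of batch 1 the median was 1.10% at 6 weeks (1.05% to 1.30%) and between 1.36% and 1.59% at the later times, and 1 sample at −3 weeks reached 3.60% while the other 4 lay between 1.11% and 1.61%. In P of batch 2 the medians were 0.777% at 6 weeks, 0.972% at −7, 1.06% at −5, 0.992% at −3, 0.974% at −1 and 1.18% at onset, with ranges that overlapped throughout. Both rRNAs together took 0.0509% to 0.994% in batch 1 and 0.0269% to 0.423% in batch 2.

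Several libraries stood apart. Libraries of batch 1 held between 4722396 and 56185434 counts, with a median of 30186412, and those of batch 2 between 29029239 and 43880986, with a median of 36440356. The genes Rn7s1, Rn7s2, Rn7s6 and Gm23935, counted together, are called 7SL here. More than 15% of the counts fell on 7SL in 7 libraries of batch 1: all 4 of NP at 22 weeks (16.6% to 38.4%), 1 of P at −3 weeks and 2 at onset. The 18-week library of NOR mouse 5 had 85.7% of its counts on 1 nuclear rRNA gene, and in it mitochondrial rRNA exceeded the protein-coding class 4.98 times. Markers of macrophages and fibroblasts, which populate an IN, were present throughout (medians of 4906 and 21190 CPM in batch 1), and 8 skeletal muscle genes summed to between 1.39 and 25640 CPM in batch 1, so biopsies held very unequal amounts of muscle RNA.

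**Figure D2:**
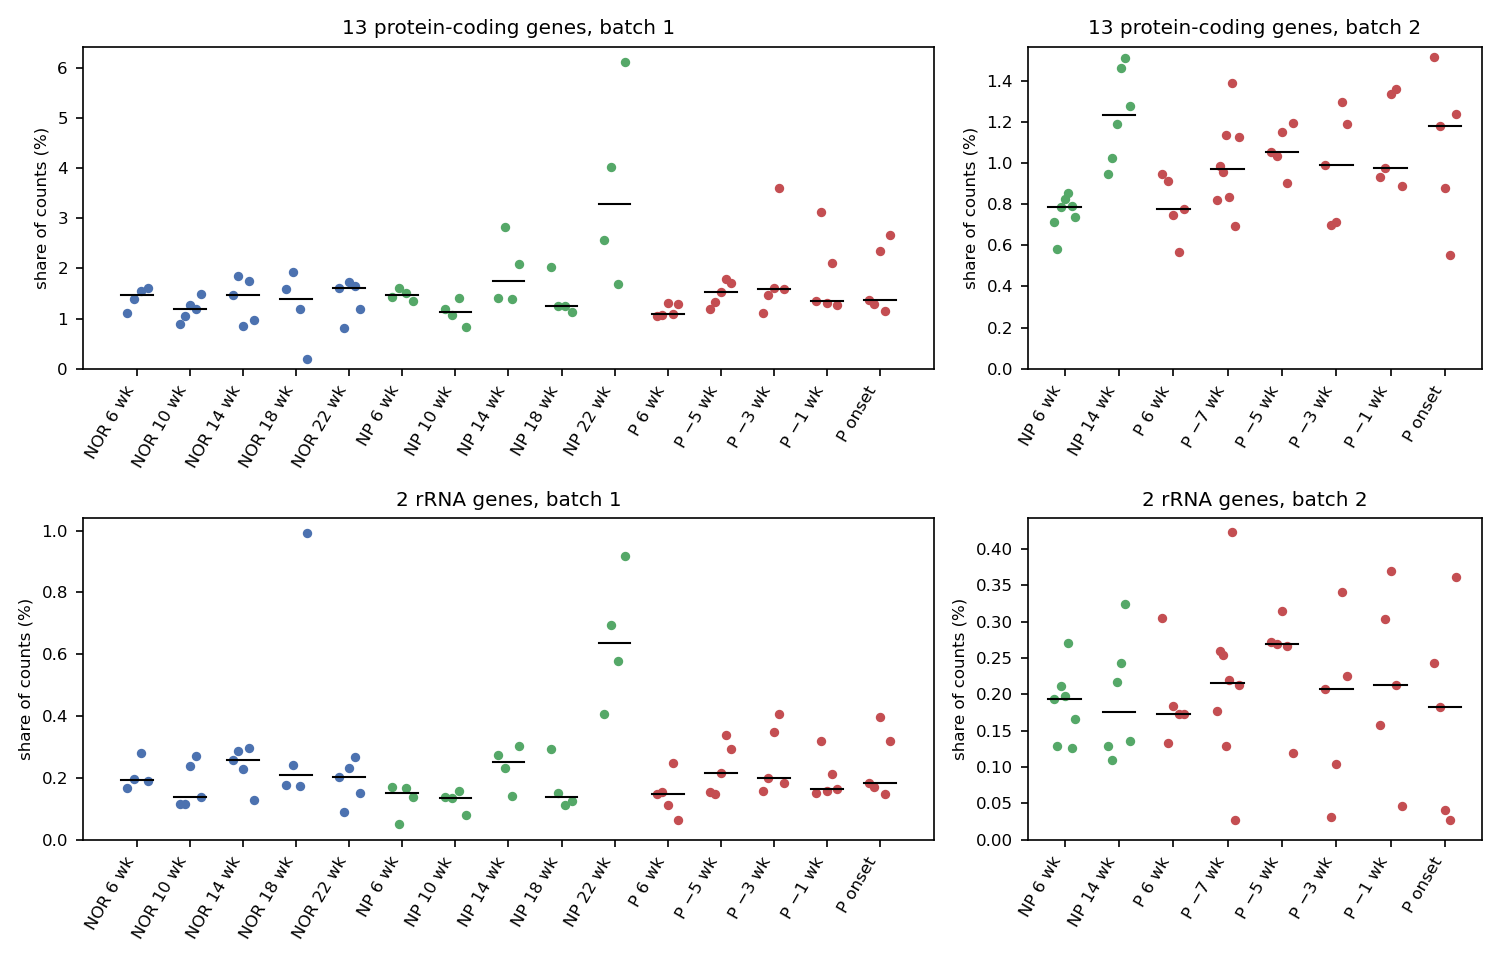
Share of all counts (%) on the protein-coding and on the rRNA genes in each sample, by group and batch, where points are samples, black lines are medians and colours are NOR, NP and P. The 4 NP samples at 22 weeks of batch 1 reach 6.12% on protein-coding genes, and the 14-week NP samples of batch 2 (0.948% to 1.51%) lie above all 6-week NP samples (0.582% to 0.857%).

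The strains were compared first, within batch 1, after adding up all biopsies of an animal (5 NOR against 9 NOD mice). Of the 13 protein-coding genes, 5 were higher in NOD at an adjusted p under 0.05 (edgeR's quasi-likelihood test with Benjamini-Hochberg adjustment over 23387 genes), while 3.87% of all genes tested were higher. With all biopsies the 13 differences were positive, with a median of 0.34 on the log2 scale against a median of −0.0016 over all genes. Neither rRNA passed, and neither had an unadjusted p under 0.05 or was called by DESeq2, with differences of −0.40 ± 0.39 for mt-Rnr1 and 0.22 ± 0.17 for mt-Rnr2. The value of mt-Rnr1 rested on the libraries included: it was 0.22 ± 0.36 without the 18-week library of NOR mouse 5, −1.17 ± 0.38 without the 7 libraries rich in 7SL (adjusted p = 0.0641), and −3.27 ± 0.60 with each biopsy as its own sample, where it was called (adjusted p = 2.78e-05).

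The 3 genes that differed most clearly were mt-Nd1, mt-Co3 and mt-Nd2. For mt-Nd1, a complex I subunit next to mt-Rnr2, the NOR mice had 1384, 1296, 1583, 1467 and 1348 normalised CPM. The NP mice had 2139, 2407, 1853 and 2586, and the P mice 1583, 1992, 1981, 2817 and 2010. All NOD mice but P mouse 1 lay above every NOR mouse, and the log2 difference was 0.60 ± 0.12 (SE, adjusted p = 0.0042, edgeR). For mt-Nd2, also of complex I, the NOR mice had 783 to 939 CPM (median 883), the NP mice 1224 to 1537 and the P mice 972 to 1537. All 9 NOD mice lay above the 5 NOR mice, with a log2 difference of 0.52 ± 0.12 (adjusted p = 0.0107). For mt-Co3 the NOR mice had 437 to 515 CPM and the NOD mice 498 to 941, a log2 difference of 0.57 ± 0.12 (adjusted p = 0.00667), which had the same sign and passed with Gm28437 added. The other 2 were mt-Nd6 (0.44 ± 0.11, adjusted p = 0.0217) and mt-Nd5 (0.47 ± 0.14, adjusted p = 0.0442). The call of mt-Nd5 was lost in 11 of 14 fits that left out a mouse, and that of mt-Nd6 without NOR mouse 4 (adjusted p = 0.0614).

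The strain difference depended on which biopsies were summed. With the 6-week samples alone none of the 15 genes passed, and 10 of the 13 protein-coding differences were negative (median −0.21). Those of mt-Nd1 (0.17 ± 0.13), mt-Nd2 (0.18) and mt-Co3 (0.056) stayed positive, while mt-Nd5 and mt-Nd6 turned to −0.11 and −0.16. At an unadjusted p under 0.05 were mt-Nd3 (−1.23 ± 0.46), mt-Atp6 (−0.36 ± 0.16), mt-Co2 (−0.35 ± 0.14) and mt-Rnr2 (−0.67 ± 0.31), all lower in NOD. Without the 7 libraries rich in 7SL, mt-Nd1 (0.33 ± 0.08, adjusted p = 0.0171), mt-Co3 (0.28 ± 0.07, adjusted p = 0.0207) and mt-Nd2 (0.31 ± 0.08, adjusted p = 0.0271) passed with smaller differences, mt-Co1 moved from 0.35 to 0.0023, and 3 genes were called in place of 5. In that fit 10 of 13 differences were positive and their median was 0.022. The share of all genes called in that fit is not given here. The 7SL genes took a median of 6.62% of counts in NOR, 6.30% in NP and 7.45% in P samples, and the muscle genes 1212, 283 and 891 CPM. Their part in the difference was not tested.

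The nuclear genes of the same machinery were nearly even between strains. Of 77 nuclear subunits of oxidative phosphorylation, 1 was higher (Ndufs5, 0.32) and 1 lower (Ndufa6, −0.20), with a median of 0.026. Among 26 genes for transcription and handling of mitochondrial RNA, Tefm, an elongation factor of mitochondrial transcription, was higher (0.23) and Pnpt1, which degrades RNA in mitochondria, was lower (−0.30). Polg, the polymerase that copies mitochondrial DNA, was lower by a small amount (−0.15 ± 0.03, adjusted p = 0.00372). Of 8 regulators of mitochondrial biogenesis, only Ppargc1a, the coactivator known for driving it, passed, and it was lower in NOD (−1.13 ± 0.20, adjusted p = 0.00223).

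**Figure D3:**
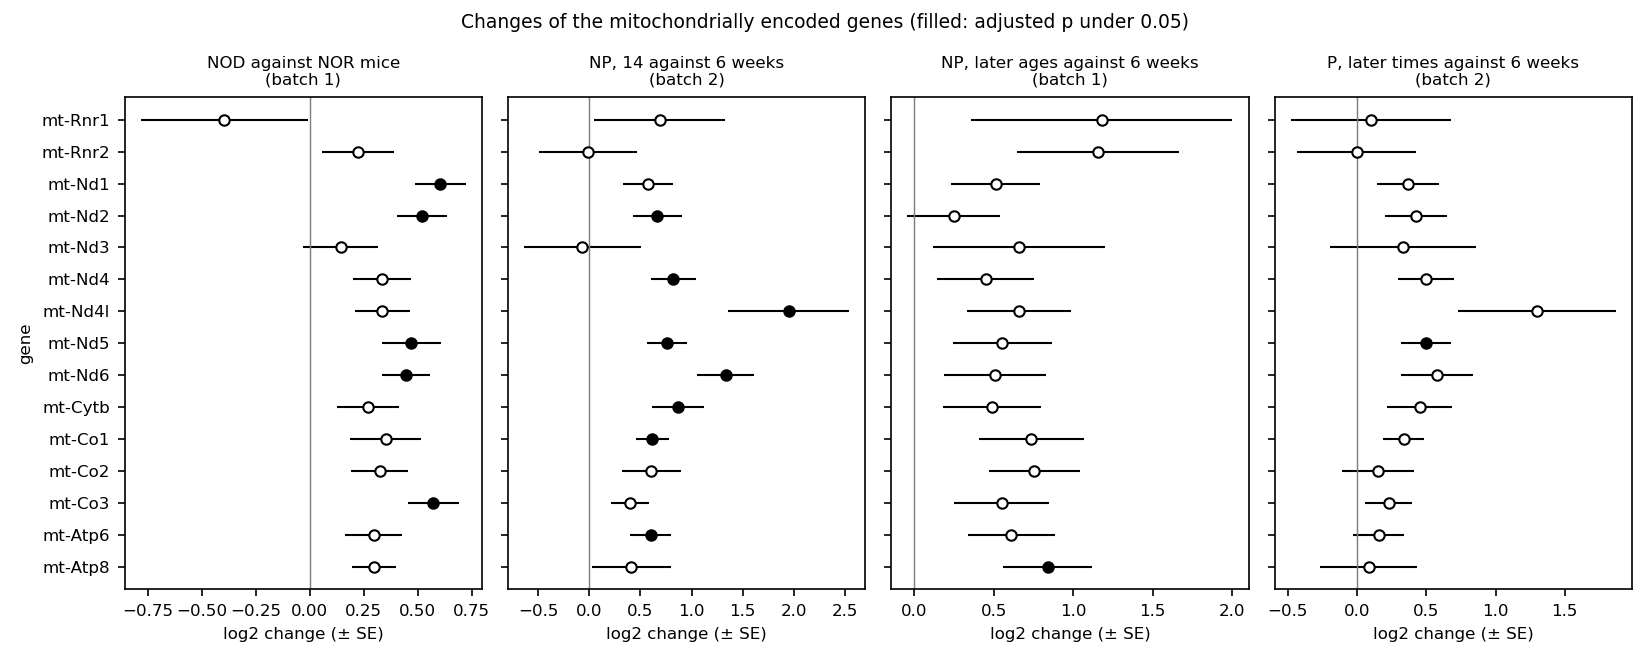
Log2 change with its standard error for the 2 rRNA and 13 protein-coding genes in 4 comparisons: NOD against NOR mice, NP at 14 against 6 weeks in batch 2, NP at later ages against 6 weeks in batch 1, and P at later times against 6 weeks in batch 2. Filled points passed an adjusted p of 0.05; 5, 8, 1 and 1 protein-coding genes are filled from left to right, and most open points also lie to the right of 0.

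The clearest change with age was found in NP of batch 2, where 6 mice were sampled at 6 and at 14 weeks and 1 mouse at 6 weeks only. Of the 13 protein-coding genes, 8 were higher at 14 weeks (edgeR, adjusted p under 0.05), while 15.7% of all 21808 genes tested were higher. The median change of the 13 was 0.62 on the log2 scale, against 0.022 over all genes. The 8 belonged to all 4 complexes: mt-Nd2, mt-Nd4, mt-Nd4l, mt-Nd5 and mt-Nd6 of complex I, mt-Cytb of complex III, mt-Co1 of complex IV and mt-Atp6 of ATP synthase. Neither rRNA passed by edgeR or DESeq2 or at an unadjusted p under 0.05, with changes of 0.69 ± 0.64 for mt-Rnr1 and −0.01 ± 0.48 for mt-Rnr2.

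In 3 of these genes (mt-Co1, mt-Nd5 and mt-Nd6) the samples of the ages were apart, with all 14-week samples above all 6-week samples. All 3 were among the genes called on these same samples. The share of all genes tested that were apart in this way was not computed. For mt-Nd6, which is transcribed from the opposite strand, the 6-week samples of mice 5 to 11 had 28.7, 22.5, 28.3, 27.7, 22.7, 28.5 and 14.0 normalised CPM, and the 14-week samples of mice 5 to 10 had 44.5, 35.3, 56.0, 77.7, 63.6 and 95.5. It rose in 6 of 6 mice, by 1.34 ± 0.28 on the log2 scale (adjusted p = 0.000452). For mt-Co1 the 6-week samples ran from 3576 to 4977 CPM (median 4543) and the 14-week samples from 5471 to 8095 (median 7045). It rose by 0.62 ± 0.16 (adjusted p = 0.00398), also in 6 of 6 mice. For mt-Nd5 the samples ran from 381 to 614 at 6 weeks (median 517) and from 662 to 1103 at 14 weeks (median 858), a rise of 0.76 ± 0.19 (adjusted p = 0.00284).

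The other 5 overlapped between the ages. The gene mt-Nd4 had 284 to 456 CPM at 6 weeks and 429 to 881 at 14 weeks (0.82 ± 0.22, adjusted p = 0.00439), and mt-Cytb had 333 to 545 and 539 to 968 (0.87 ± 0.25, adjusted p = 0.00839). Both were higher at 14 weeks in 6 of 6 mice. For mt-Nd4l, which kept few counts in batch 2, the 6-week samples had 0, 0, 2.30, 3.30, 0.874, 0.451 and 1.69 CPM and the 14-week samples 1.03, 5.20, 4.20, 8.98, 5.84 and 3.22. Its change was 1.95 ± 0.59 (adjusted p = 0.0111), and 1.32 ± 0.26 (adjusted p = 0.00025) with its copy Gm10222 added. For mt-Atp6 (0.60 ± 0.20, adjusted p = 0.021) and mt-Nd2 (0.66 ± 0.24, adjusted p = 0.0335) 5 of 6 mice were higher at 14 weeks. When the fit took the mouse as a block, 6 genes passed in place of 8, without mt-Atp6 (adjusted p = 0.0888) and mt-Nd2 (adjusted p = 0.115). Without NP mouse 8 or mouse 9 both were lost as well, and without mouse 10 or mouse 11 mt-Nd2 was. The shares of all genes called in these fits are not given here.

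The 5 protein-coding genes that did not pass had log2 changes of 0.61 (mt-Co2), 0.57 (mt-Nd1), 0.41 (mt-Atp8), 0.40 (mt-Co3) and −0.07 (mt-Nd3). Of these, mt-Co2 was higher at 14 weeks in 6 of 6 mice, mt-Nd1 and mt-Co3 in 5, mt-Nd3 in 3 and mt-Atp8 in 2.

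**Figure D4:**
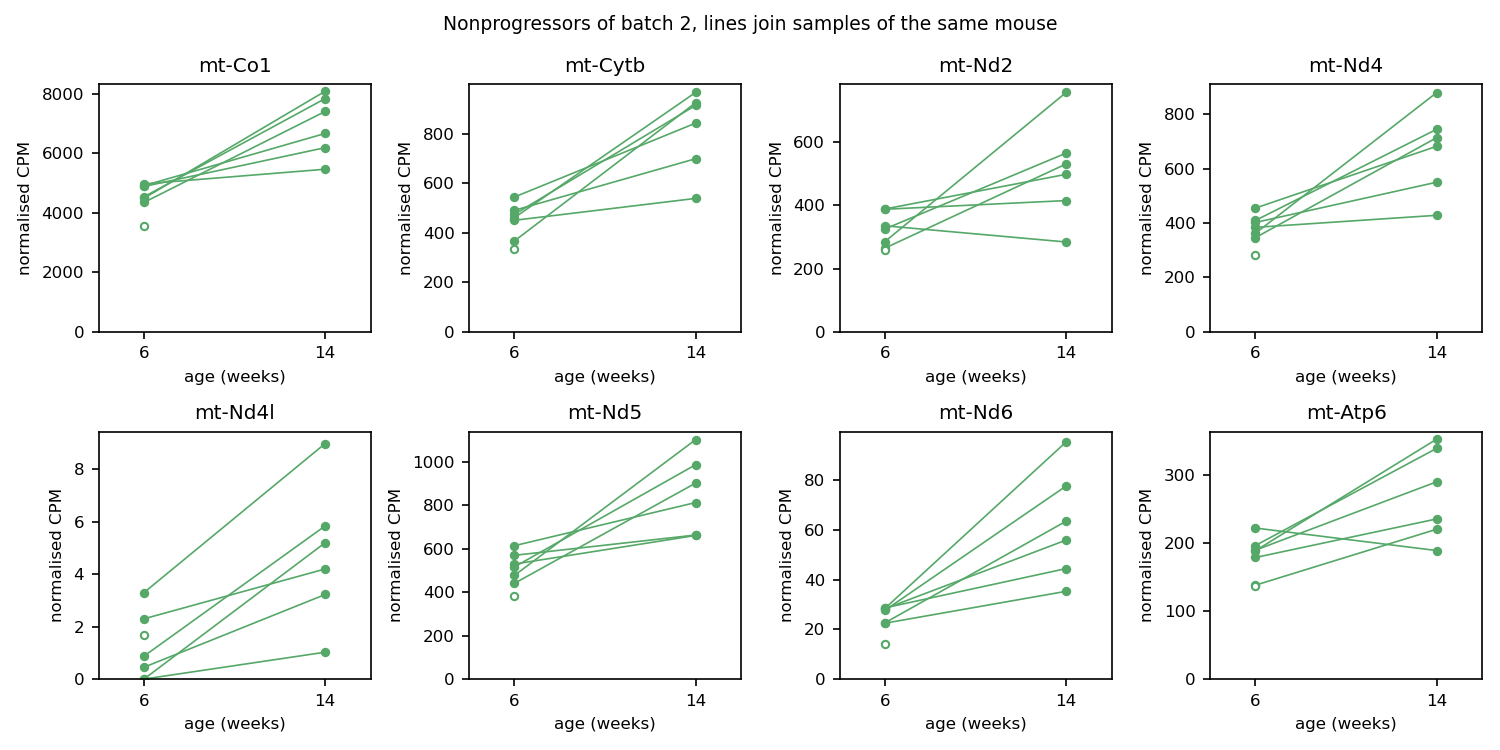
Normalised CPM of the 8 genes that were higher at 14 than at 6 weeks in NP of batch 2, with age in weeks on the x axis. Lines join the samples of the same mouse (6 mice) and the open point is the mouse sampled at 6 weeks only; all lines rise for mt-Co1, mt-Cytb, mt-Nd4, mt-Nd4l, mt-Nd5 and mt-Nd6, and 1 line falls for mt-Nd2 and for mt-Atp6.

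Markers of other cell types moved with this comparison. All 8 skeletal muscle markers were detected in every NP sample of batch 2 and all 8 were called higher at 14 weeks, and their sum ran from 3.43 to 503 CPM at 6 weeks (median 13.6) and from 10.6 to 6648 at 14 weeks (median 3743). All 5 adipocyte markers were called higher as well, with sums of 38.5 to 58.9 CPM at 6 weeks and 18.9 to 757 at 14 weeks. All 4 fibroblast markers were called lower, with sums of 30630 to 57310 CPM and 11080 to 22710. Their part in the rise as a whole was not tested. Mouse 5 had the lowest sums of muscle (10.6 CPM) and adipocyte markers (18.9 CPM) at 14 weeks. Its protein-coding share was 0.948%, against 1.02% to 1.51% in the others and 0.788% in its own 6-week sample. This is 1 mouse, and whether the share went with the markers over the 6 mice was not tested.

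Among nuclear genes in the same comparison, 6 of 76 subunits of oxidative phosphorylation were higher and none lower, with a median of 0.11. They included Cyc1, cytochrome c1 of complex III (0.44), and the complex I subunits Ndufv1 (0.32) and Ndufs1 (0.23). Of the 8 regulators of biogenesis 5 were higher, among them Ppargc1a (2.11 ± 0.44, adjusted p = 0.000481), Ppargc1b (0.80) and Esrra (0.39), and Gabpa was lower (−0.24). Twnk, the mitochondrial helicase (0.33), Ssbp1, which binds single-stranded mitochondrial DNA (0.29), and Polrmt, the mitochondrial RNA polymerase (0.28), rose by less than the 8 encoded genes, and Pnpt1 fell by 0.46.

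In batch 1, NP mice at 10 to 22 weeks were compared with 6 weeks in the same mice. Only mt-Atp8 was higher (0.84 ± 0.28, adjusted p = 0.0404, edgeR), while 5.94% of all genes tested were. Its CPM was 131, 55.5, 139 and 120 at 6 weeks and 284, 532, 313 and 936 at 22 weeks, with 77.9 to 281 at the ages between. The 22-week samples were all above the 6-week ones, whereas those at 10, 14 and 18 weeks overlapped them. The call rested on the 22-week libraries, which are those rich in 7SL: without that age the change was 0.37 ± 0.27 (adjusted p = 0.427). It was also lost without NP mouse 1, 2 or 4 and with the mouse as a block (adjusted p = 0.0576). At 22 weeks mt-Co1 ran from 9608 to 51952 CPM and mt-Rnr2 from 4417 to 15722, against 4258 to 5903 and 430 to 1422 at 6 weeks, and summed macrophage markers in these libraries were 1723 to 3471 CPM. All 13 changes were positive (median 0.55), and this too rested on the 22-week libraries: without them 10 of 13 were positive, with a median of 0.071 and values of −0.15 for mt-Nd2, −0.04 for mt-Nd4 and −0.0065 for mt-Cytb. Of the nuclear subunits 6 of 77 were lower and none higher, and of 4 fibroblast markers 2 were lower. In NOR mice at the same ages no member passed (edgeR, 0 of 15, with mt-Rnr1 the only one at an unadjusted p under 0.05, and 0 by DESeq2), while 0.0994% of all genes did. The median change of the protein-coding genes in NOR was 0.006. The difference between the change in NP and that in NOR passed for no member by edgeR or DESeq2, and for 0% of all genes (1251 genes at an unadjusted p under 0.05, and 12 called by DESeq2). At an unadjusted p under 0.05 mt-Co2 and mt-Atp8 did, with differences of 0.79 ± 0.38 and 0.82 ± 0.37, and without NP at 22 weeks no protein-coding gene did.

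In P mice of batch 1 no member passed between 6 weeks and the last 5 weeks before onset (edgeR, 0 of 15), while 24.9% of all genes changed in either direction. All 13 protein-coding changes were positive (median 0.61), 10 had an unadjusted p under 0.05, and the lowest adjusted p was 0.06 for mt-Co1 (0.73 ± 0.30). DESeq2 called 5 higher, mt-Nd1, mt-Co1, mt-Co2, mt-Co3 and mt-Nd6. With the copies added edgeR called 3, mt-Co2 (0.74), mt-Co3 (0.71) and mt-Nd3 (1.19 ± 0.32, adjusted p = 0.00472). For mt-Co1 the 6-week samples of mice 1 to 5 had 3470, 3522, 4328, 4308 and 6176 CPM and the onset samples 5525, 5091, 13311, 4826 and 12581. Mouse 5 at 6 weeks lay above 3 of the 5 onset samples, so the groups overlapped. The 2 high onset values belong to mice 3 and 5, whose libraries had 17.1% and 17.4% of counts on 7SL. Without the libraries rich in 7SL the 13 changes were positive with a median of 0.35, none had an unadjusted p under 0.05, and mt-Co1 changed by 0.44 ± 0.23. Leaving out the 18-week library of NOR mouse 5, which took part in the estimate of the spread, 3 members were called: mt-Rnr1 lower (−1.15) and mt-Rnr2 (0.87) and mt-Nd6 (0.73) higher. The 24.9% of all genes belongs to the main fit. Shares of all genes called with DESeq2, with copies added or without this library are not given here. Nuclear subunits were called in both directions, 9 higher and 8 lower of 77. All 4 fibroblast markers were lower and 0 of 8 muscle markers passed (edgeR, with a median change of −2.16), and their part in the values was not tested.

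In P mice of batch 2 mt-Nd5 was higher at −5 weeks to onset than at 6 weeks (0.50 ± 0.18, adjusted p = 0.0301), and it was the only one of 13, while 17% of all genes were higher. Its CPM in mice 6 to 10 was 610, 555, 493.2, 378 and 485 at 6 weeks, 825, 759, 766, 687 and 753 at −5 weeks, and 1060, 750, 536, 384 and 965 at onset. All samples at −5 weeks lay above all at 6 weeks, whereas those at onset spread over a wider range and overlapped. The call was lost without P mouse 8, 9 or 10, and with the mouse as a block (0 called, adjusted p = 0.054). With copies added mt-Nd4l passed as well (1.06 ± 0.25, adjusted p = 0.00107). All 13 changes were positive (median 0.37), or 12 of 13 without mouse 10, and 1 of 76 nuclear subunits was called, Sdhd of complex II, which was lower (−0.22). Muscle markers had a median of 39.9 CPM at 6 weeks and of 158 to 1109 at the later times, all 5 adipocyte markers were higher and all 4 fibroblast markers lower, and their part in the change was not tested.

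In P mice of batch 2 the 12S rRNA mt-Rnr1 was called around −7 weeks. In this batch, mice 1 to 4 were sequenced at −7 weeks only, whereas all other P samples of the batch were from mice 6 to 10. The numbers 1 to 4 are also those of P mice of batch 1, and the paper counts 10 progressors in all. A difference between mice 1 to 4 and the others cannot be told apart from a difference of time. The fit blocked by mouse rests on mice 6, 7, 9 and 10. At −7 weeks mice 1, 2, 3, 4, 6, 7, 9 and 10 had 24.8, 4.36, 7.45, 5.66, 5.39, 10.0, 96.2 and 7.76 CPM. The 5 mice at 6 weeks had 2.16, 16.3, 3.33, 3.44 and 2.38, and the later samples ran from 2.12 to 56.4. Mouse 9 was far above the others at −7 weeks, and the ranges overlapped. The level at −7 weeks was higher than at 6 weeks (1.87 ± 0.70, adjusted p = 0.0473), while 12% of all genes were higher, and it was higher than at later times, where it fell by 1.78 on the log2 scale (SE 0.45, adjusted p = 0.0111), while 5.11% of all genes were lower. Without mouse 9 both calls were lost (0.63, adjusted p = 0.52, and −0.83, adjusted p = 0.279), as they were in the fit blocked by mouse (adjusted p = 0.12 and 0.119). The call against 6 weeks was also lost without mouse 1, 6, 8 or 10. The 16S rRNA mt-Rnr2 had medians of 2087 CPM at −7 weeks and 1839 at 6 weeks and changed by 0.03 ± 0.49. No protein-coding gene passed in either comparison (edgeR and DESeq2, 0 of 13), with 3 and 0 at an unadjusted p under 0.05, though with the copies added mt-Nd4l was higher at −7 than at 6 weeks (0.85 ± 0.27, adjusted p = 0.0218). Of 76 nuclear subunits, 4 were higher and 1 lower at −7 than at 6 weeks, and 12 were lower and none higher at the later times than at −7. The latter included Ndufa4 (−0.54), Cyc1 (−0.27) and Atp5b, the catalytic subunit of ATP synthase (−0.26).

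**Figure D5:**
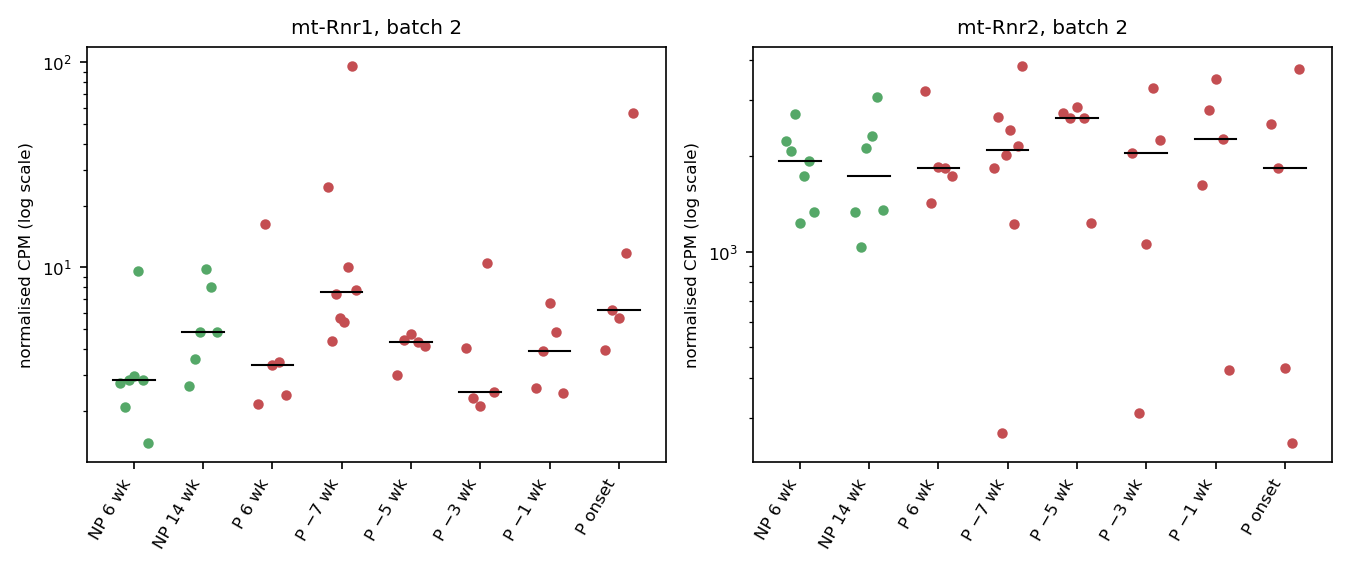
Normalised CPM (log axis) of the mitochondrial rRNAs mt-Rnr1 and mt-Rnr2 in each NP and P sample of batch 2, with black lines at the medians. The highest mt-Rnr1 values are those of mouse 9 at −7 weeks (96.2) and of mouse 10 at onset (56.4), and mt-Rnr2 reaches its lowest values in P samples (249 to 431).

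At 6 weeks of age, before outcome was known, no difference between P and NP passed for any of the 15 members, in batch 1 (0.0521% of all genes called) or in batch 2 (0% called, with 349 genes at an unadjusted p under 0.05 and 13 called by DESeq2), by edgeR or DESeq2. At an unadjusted p under 0.05 only mt-Rnr1 of batch 1 differed, by 2.04 ± 0.96. The protein-coding differences ran from −0.73 ± 0.63 (mt-Nd3) to 0.24 ± 0.32 (mt-Atp8) in batch 1 and from −0.57 ± 0.61 (mt-Nd3) to 0.36 ± 0.29 (mt-Nd6) in batch 2. Standard errors of these differences ran from 0.32 to 0.63 and from 0.17 to 0.62, and larger differences than these also did not pass, as that of mt-Rnr1 shows (adjusted p = 0.597). Over the last 5 weeks in P, variation between −5, −3, −1 weeks and onset was tested with edgeR's F test. No member passed in batch 1 (2.86% of all genes called, 0 members at an unadjusted p under 0.05, 0 by DESeq2). None passed in batch 2 (6.27% called) either, where mt-Rnr1 had an adjusted p of 0.0844 by this F test and DESeq2 called 1 member. Whether the change with time differed between P and NP was tested directly. No member passed in batch 1 (0.00946% of all genes called) or in batch 2 (0% called, with 974 genes at an unadjusted p under 0.05 and 18 called by DESeq2), by edgeR or DESeq2, and at an unadjusted p under 0.05 there was 1 in each batch, mt-Rnr1 (−2.33 ± 1.06) and mt-Nd6 (−0.76 ± 0.37). The larger number of calls in NP than in P of batch 2 is thus not shown to be a difference between them.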

How the data were processed

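Total RNA of IN biopsies was sequenced after rRNA depletion. The authors deposited expected counts, estimated per Ensembl gene and rounded to whole numbers, in 1 table per batch without normalization. The submitters' processing notes name cutadapt, FastQC, STAR, RSEM, MultiQC and GRCm38, with no versions. Reporter rows (5 and 4) were left out, and 55487 genes are in both tables. From the counts, edgeR 4.0.16 in R 4.3.3 (filterByExpr, TMM and the quasi-likelihood test, with p adjusted after Benjamini and Hochberg over all genes and a threshold of 0.05) was run within each batch on 68 and 46 samples with 1 coefficient per group, and for strain on counts summed per mouse. Normalised CPM are counts scaled to the TMM-adjusted library size. DESeq2 1.42.0, no filter, another scaling, single mice or libraries left out, and copies added were alternatives. All 239 pairs of replicates differed by more than counting noise, with a chi-square of at least 11.0 times its degrees of freedom. In simulated counts in which 200 genes carried a log2 change of 1, the test found 61.5% for NP at later ages in batch 1 (20890 genes) and 64.5% for NP at 14 against 6 weeks in batch 2 (21540 genes). Of the genes called there, 7.52% and 3.73% were false. Smaller changes, as most members had, were not simulated.

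Samples of a mouse are paired by the animal numbers in the labels, and over 2000 genes the mean correlation of deviations within a mouse was 0.0116 (NOR), 0.0214 (NP) and −0.0185 (P) in batch 1 and −0.0896 (NP) and 0.00177 (P) in batch 2. Nuclear copies were found by aligning the mitochondrial transcripts of GENCODE M21 to its other transcripts (blastn 2.17.0+). All rRNA and protein-coding members are named, as are up to 3 examples of the nuclear lists. The members and lists were chosen with earlier results of these data known. One list gene, 1110008L16Rik, and 4 of the nuclear rRNA symbols were not matched in the tables, and the rRNA gene CT010467.1 was added after its values were seen. The floors of the tRNA genes cover counting error only, whereas the standard errors come from the fits and include the spread between replicates.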

Additional observations from a re-analysis of the deposited data

Results flagged for a closer look

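A sample far from the rest of its group was found in 11 of 94 groups of 4 to 10 samples. Single genes entered only where they had been called in a comparison, and the groups share samples. The chance rate of about 1 in 20, which holds for independent groups, can therefore not be set against this count. Among class shares, the 18-week library of NOR mouse 5 had 0.994% of its counts on mitochondrial rRNA (the others 0.175% to 0.243%). The highest NP sample at 18 weeks in batch 1 had 2.02% on protein-coding genes (others 1.12% to 1.25%), and the highest P sample at −3 weeks in batch 1 had 3.60% (others 1.11% to 1.61%). The lowest P sample at −5 weeks in batch 2 had 0.120% on rRNA (others 0.266% to 0.315%).

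Of single genes, mt-Rnr1 stood apart in 4 P groups of batch 2, with 16.3 CPM at 6 weeks (others 2.16 to 3.44), 96.2 at −7 weeks (4.36 to 24.8), 10.45 at −3 weeks (2.12 to 4.07) and 56.4 at onset (3.97 to 11.8). For mt-Nd5 the highest P sample at −7 weeks had 1037 CPM (465 to 735). For mt-Nd6 the lowest 6-week NP sample of batch 2 had 14.0 CPM (22.5 to 28.7). For mt-Nd2 the highest P mouse of batch 1 had 1537 CPM (972 to 1134). The causes were not tested.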

How the results depend on the processing

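Counts of called members changed as follows. In the strain comparison, 5 became 0 with 6-week samples, 10 with NP mice only against NOR and 3 without libraries rich in 7SL, and 10 of 13 protein-coding differences were negative with 6-week samples (mt-Nd5 −0.11, mt-Nd6 −0.16). For NP at later ages in batch 1, 1 became 2 with DESeq2 or without the 18-week library of NOR mouse 5, and 0 without 22 weeks, without libraries rich in 7SL, with no filter or with the mouse as a block. For P at later times in batch 1, 0 became 5 with DESeq2, 3 without that NOR library and 3 with copies added. For P at later times in batch 2, 1 became 3 with DESeq2, 2 with copies added and 0 with no filter or the mouse as a block. For P at −7 against 6 weeks, 1 became 2 with copies added and 0 with no filter or the block, and for later times against −7, 1 became 0 with the block. Over the last 5 weeks of P in batch 2, DESeq2 gave 1 in place of 0. The cause of each was not tested. For these settings, calls over all genes are given below only for strain with 6-week samples and for P at −7 against 6 weeks with the block. Whether the other counts moved with the number of all genes called is not shown here. The block changed no other count by over 1.5 times, and it could not be fitted between mice (strain, and P against NP at 6 weeks).

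Leaving out each mouse in turn gave 3 to 9 for strain, 6 to 9 for NP at 14 against 6 weeks, 0 to 1 for NP at later ages, for P at later times in batch 1, for both comparisons with −7 weeks and for the last 5 weeks in batch 2, 0 to 3 for P at later times in batch 2 and 0 for the others. Scaling without mitochondrial, rRNA and 7SL genes changed no count by over 1.5 times. With shares taken of counts outside nuclear rRNA and 7SL genes, 46 of 52 group medians moved by less than 1 SD and 6 by more. Calls over all genes fell from 2101 to 403 in the strain comparison with 6-week samples, and from 4815 to 2653 for P at −7 against 6 weeks with the block. Depth limits mt-Nd3 and mt-Nd4l, which had 0 counts in some samples, and mt-Rnr1 in batch 2, and the 4 to 8 mice per group limit the precision.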

Other observations

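The 6 NP samples labelled by days after implantation belonged to no comparison. Their protein-coding genes took 0.855% and 0.943% of counts at 31 days, 1.28% and 1.33% at 38 days and 1.01% and 1.04% at 108 days. Mitochondrial rRNA took 0.121% and 0.125%, 0.0934% and 0.108%, and 0.111% and 0.112%. Skeletal muscle markers summed to 1.39 and 5.33, 2637 and 5208, and 34.5 and 113 CPM.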
